A study of Mus musculus with 8 samples.

Results

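A set of 9 germline genes was followed in mouse embryonic stem cells (ESCs) after depletion of ZZZ3 or YEATS2, subunits of the histone acetyltransferase coactivator complex ATAC. They were chosen by name, as genes known to be kept silent in stem cells, with earlier results of these data known: Dazl, Mael, Tdrkh, Stk31, Sycp1, Sycp3, Hormad1, Tex101 and Slc25a31. All 9 were found among the 55401 genes of the count tables. Total RNA was sequenced from 8 libraries: 2 labelled Control, 3 labelled Zzz3 auxin and 3 labelled Yeats2 auxin. In the auxin groups the named protein carries an auxin-inducible degron (AID), which leads to its breakdown once auxin is added, and auxin was given at 500 µM for 24 h. All cells grew in serum with leukaemia inhibitory factor and the pair of kinase inhibitors known as 2i, and under G418, which keeps cells with Tir1, the plant protein that the degron needs. Neither the line of the Control cells nor a solvent treatment is stated in their labels. Depletion, tagged line and auxin exposure therefore cannot be told apart in comparisons with Control. The 2 auxin groups also differ in which protein is tagged. Replicates are not said to be separate cultures, so P values measure the spread between these libraries, which may be technical.

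Germ cells use a set of genes that other cells keep off. Many of these genes have CpG-rich promoters that become methylated when the embryo implants, and in ESCs many are also bound by a noncanonical Polycomb complex, PRC1.6, whose subunits MGA and MAX recognise a short sequence called the E-box and whose subunit E2F6 recognises an E2F site. Medium with 2i is known to lower DNA methylation in ESCs. Among the 9 genes, Dazl encodes an RNA-binding protein of germ cells, Mael and Tdrkh encode proteins of the piRNA pathway that restrains transposons, Stk31 encodes a germ cell protein with Tudor and kinase-like domains, Sycp1, Sycp3 and Hormad1 encode proteins of meiotic chromosome axes and the synaptonemal complex, Tex101 encodes a surface glycoprotein of male germ cells, and Slc25a31 encodes a mitochondrial ADP/ATP carrier of the testis.

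The promoters of the genes are shown first, because E-box and E2F sites are the letters through which PRC1.6 is known to find its targets. RefSeq windows on GRCm38.p6, the assembly the authors call mm10, were found for all 9 genes, and the 250 bases before each start were searched for the E-box letters CACGTG, which read alike on both strands, and for the E2F6 letters TCCCGC or, on the other strand, GCGGGA. The E-box letters stood before 6 of the 9 genes (66.7%), namely Mael, Sycp1, Sycp3, Stk31, Slc25a31 and Hormad1. They stood before 9.62% of the 11380 tested genes that have a window, before 6.86% of all 27025 genes with one and before 16 of 65 other germline genes with a window (24.6%). The E2F6 letters stood before 3 of the 9 genes, Mael, Sycp3 and Hormad1, which is 33.3%, the same share as in the tested genes (33.3%). Neither set of letters was found before Dazl, Tdrkh or Tex101 in these windows. The windows of the 9 genes held a median of 18 CpG dinucleotides, against 16 in the tested genes.

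The promoters of 5 genes are printed, from 5′ to 3′ on the strand of the gene and up to the first base that GENCODE places in an exon of that gene. They are the promoter of Tex101, whose level differed most between groups, that of Dazl, the gene with the most reads, and those of 3 meiotic genes with E-box letters. Capitals mark the E-box and E2F6 letters.
Tex101, chr7:24672051-24672300, strand -: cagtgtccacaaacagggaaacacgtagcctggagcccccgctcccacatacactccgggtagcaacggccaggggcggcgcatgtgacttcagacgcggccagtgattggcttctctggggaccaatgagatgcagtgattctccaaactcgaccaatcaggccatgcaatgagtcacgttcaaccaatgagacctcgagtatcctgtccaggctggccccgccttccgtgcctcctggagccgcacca
Dazl, chr17:50293637-50293870, strand -: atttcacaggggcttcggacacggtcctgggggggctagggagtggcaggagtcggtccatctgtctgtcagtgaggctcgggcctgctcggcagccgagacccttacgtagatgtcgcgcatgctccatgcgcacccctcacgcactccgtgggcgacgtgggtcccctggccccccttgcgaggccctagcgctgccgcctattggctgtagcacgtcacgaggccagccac
Sycp3, chr10:88459337-88459568, strand +: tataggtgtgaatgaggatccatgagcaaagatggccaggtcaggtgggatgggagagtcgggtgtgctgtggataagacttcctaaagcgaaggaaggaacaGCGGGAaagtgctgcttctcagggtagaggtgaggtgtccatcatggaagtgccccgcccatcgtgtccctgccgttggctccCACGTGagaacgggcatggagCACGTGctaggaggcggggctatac
Hormad1, chr3:95559427-95559676, strand +: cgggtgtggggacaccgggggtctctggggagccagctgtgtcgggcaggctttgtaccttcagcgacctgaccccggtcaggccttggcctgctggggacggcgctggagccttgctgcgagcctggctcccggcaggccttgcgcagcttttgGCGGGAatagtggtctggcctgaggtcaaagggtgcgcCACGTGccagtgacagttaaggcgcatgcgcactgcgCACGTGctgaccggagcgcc
Sycp1, chr3:102936101-102936350, strand -: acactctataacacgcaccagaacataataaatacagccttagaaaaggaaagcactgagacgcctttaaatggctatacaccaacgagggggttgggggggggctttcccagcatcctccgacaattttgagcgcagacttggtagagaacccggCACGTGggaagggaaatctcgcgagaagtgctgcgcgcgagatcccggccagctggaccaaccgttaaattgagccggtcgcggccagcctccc

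The RefSeq start of Tex101 lies inside the span of the gene in GENCODE, so GENCODE also places transcripts that start farther upstream. In Sycp3 the E-box letters began 64 and 43 bases before the start, in Hormad1 57 and 20 bases, in Sycp1 94 bases, in Slc25a31 93 bases, in Stk31 120 bases and in Mael 223 bases. Across all tested genes with a window, the median log2 fold change (FC) after Zzz3 auxin was 0.02 in the 1095 genes with the E-box letters and 0.03 in the 10289 without, and after Yeats2 auxin it was 0.01 in both. These counts are by gene ID, and 4 symbols carry 2 IDs each.

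**Figure D1:**
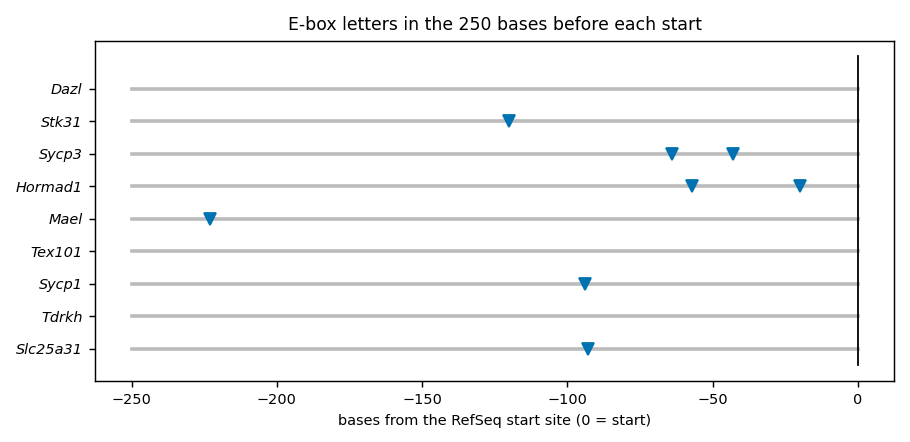
Position of the E-box letters in the 250 bases before the RefSeq start of each of the 9 germline genes, in bases from the start on the horizontal axis, with 1 grey line per gene and a triangle where the letters begin. Sycp3 and Hormad1 hold a pair of E-boxes within 64 bases of the start, and Dazl, Tex101 and Tdrkh hold none in this stretch.

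Each library held 14315120 to 27884704 reads in genes, and 17532 genes had enough reads to be tested, all 9 germline genes among them. Zzz3 auxin replicate 3 was the shallowest library. Levels are given as CPM, the usual count of reads of a gene scaled to the depth of its library, with TMM factors (trimmed mean of M values). A log2 FC was tested with edgeR's quasi-likelihood test, and a gene was called at a Benjamini-Hochberg adjusted P under 0.05 over all tested genes. Of the targeted genes, Zzz3 was at 186 and 182 CPM in the Control libraries and at 77.5, 96.9 and 112 CPM in the Zzz3 auxin libraries (log2 FC -0.95, adjusted P = 0.0187). Yeats2 was at 90.9 and 95.8 CPM in the Control libraries and at 77.3, 103 and 43.7 CPM in the Yeats2 auxin libraries, which overlapped. The degron acts on the protein, so these RNA levels do not check the depletion. All 15 naive pluripotency genes had at least 10 reads in every library, with Tfcp2l1 at 1710 to 2540 CPM and Nanog at 561 to 772 CPM. Of the other markers, the summed level was 7.20 to 12.8 CPM for 10 fibroblast genes, led by Pdgfrb and Col1a2 with Dcn at 0 reads, 16.9 to 23.8 CPM for 10 trophoblast genes, led by Cdx2 and Eomes with Prl3d1 at 0, and 4.44 to 7.76 CPM for 10 genes of gonadal somatic cells, led by Star and Rhox5 with Hsd3b1 at 0. In Zzz3 auxin replicate 1 the genes of the two-cell-like state stood apart, with Zscan4d at 8.56 CPM against 0.816 to 2.13 CPM in the 7 others.

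All 9 germline genes gave reads in every library, but reads alone do not show that a gene is active. Tex101, Sycp1, Tdrkh and Slc25a31 averaged 0.759 to 1.32 CPM, and the fibroblast marker Col1a2, also with reads in every library, averaged 0.877 CPM. Dazl, Stk31, Sycp3 and Hormad1 averaged 8.0 to 29.1 CPM, so in these cells the set was not silent as a whole. With detection set at 10 reads, 7 of the 9 genes were detected in every library and all 9 in at least 1 library. The exceptions were Slc25a31 with 4 reads and Tdrkh with 7 reads, both in Zzz3 auxin replicate 3. Levels between genes are compared per kilobase (kb) of exon. Sycp3 averaged 7.97 ± 1.80 CPM per kb (SD, n = 8 libraries), Dazl 7.62 ± 1.08, Stk31 7.29 ± 1.68, and Hormad1 4.63 ± 0.957. Sycp3 lay above 59.7% of the 13634 tested protein-coding genes on this scale, Dazl above 58.9%, Stk31 above 57.9% and Hormad1 above 47.9%. Mael averaged 2.22 ± 0.293 CPM per kb, Tex101 0.799 ± 0.418, Sycp1 0.364 ± 0.0760, Slc25a31 0.357 ± 0.194 and Tdrkh 0.166 ± 0.0529. The last 4 lay above 22.4%, 14.4%, 14.3% and 7.40% of the tested coding genes. In this order the ranges over the 8 libraries were apart only between Hormad1 and Mael (3.23 to 6.04 against 1.72 to 2.57 CPM per kb) and between Mael and Tex101 (highest 1.41), and each of the other neighbours overlapped. The gene with the highest mean was not the same in each group: Sycp3 led in Control (mean 10.0 CPM per kb), Dazl in Zzz3 auxin (8.67) and Stk31 in Yeats2 auxin (8.70), an order that was not tested.

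**Figure D2:**
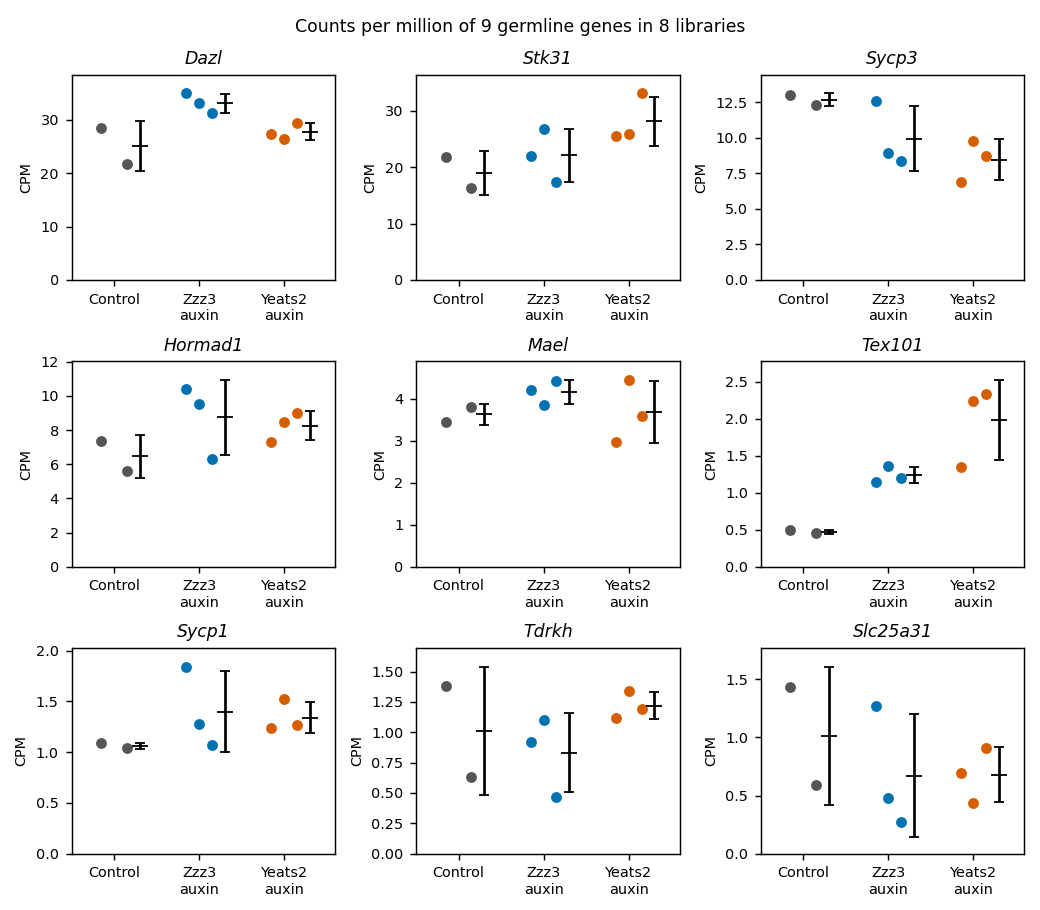
Level of each of the 9 germline genes in CPM (vertical axes, all from 0) in the 2 Control, 3 Zzz3 auxin and 3 Yeats2 auxin libraries, with 1 point per library and a black bar for the group mean ± SD. The Tex101 points of both auxin groups lie above the Control points, while in Tdrkh and Slc25a31 the 2 Control points are themselves far apart.

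The first question was whether these genes were higher in either auxin group than in Control. Of the 9 genes, Tex101 was called after Yeats2 auxin, where it rose, and no gene was called after Zzz3 auxin. After Zzz3 auxin 0 of 9 genes were called, where 0.753% of all tested genes were. 2 of the 9, Dazl and Tex101, had an unadjusted P under 0.05, as had 21.7% of all tested genes. In 3 of the 9, Dazl, Mael and Tex101, the libraries did not overlap between the groups, as in 35.8% of all genes. After Yeats2 auxin 1 of 9 genes was called, where 0.445% of all tested genes were. 3 of the 9, Tex101, Stk31 and Sycp3, had an unadjusted P under 0.05, as had 14.6% of all genes, and in 4 of the 9, Tex101, Stk31, Sycp1 and Sycp3, the libraries did not overlap, as in 40.3%. The shares of genes without overlap were thus close to those of all tested genes. With a correction for GC content and length of the transcripts, 4 of the 9 had an unadjusted P under 0.05 in edgeR after Zzz3 auxin. After Yeats2 auxin it was also 4 of the 9. Of the 17532 tested genes, 2907 and 2301 passed there. The median log2 FC of the 9 genes was 0.22 after Zzz3 auxin and 0.28 after Yeats2 auxin, against 0.01 and -0.01 over all genes tested. DESeq2, which gave 5 of the 9 an adjusted P, and limma-voom also called 0 of the 9 after Zzz3 auxin, where they called 8.5% and 0.508% of all genes to which they gave one. Both comparisons use the same 2 Control libraries.

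**Figure D3:**
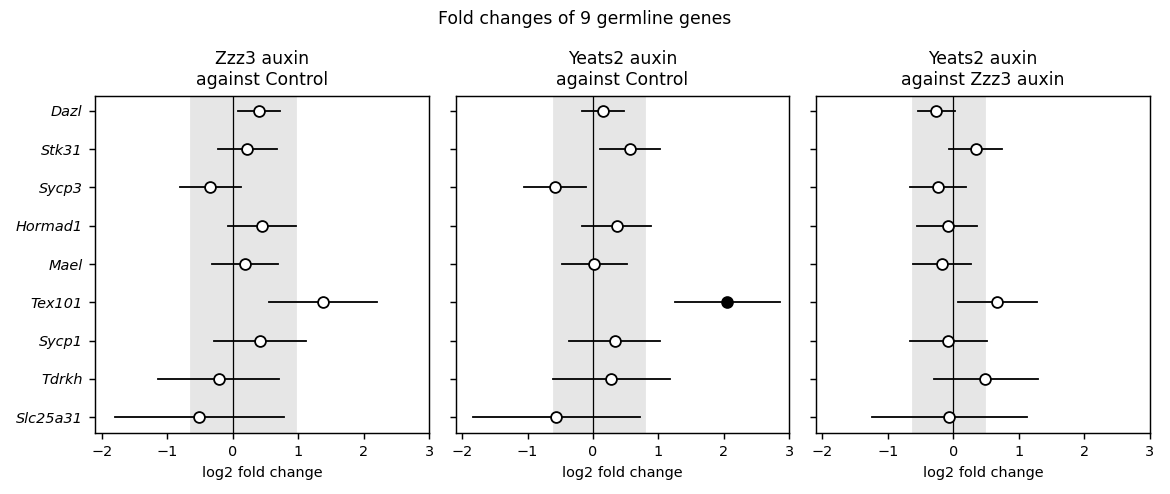
Log2 FC (horizontal axes) of the 9 germline genes in the 3 comparisons, with points for the edgeR estimate, lines for its 95% confidence interval and grey bands from the 5th to the 95th percentile of all 17532 tested genes. The filled point, Tex101 after Yeats2 auxin at 2.05, is the one called, and most of the other intervals cross 0.

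Tex101 is known as a marker of male germ cells that is needed for sperm to pass into the oviduct. The gene lies on chr7:24668007-24676675. It held 10 and 10 reads in the Control libraries, 30, 37 and 18 in the Zzz3 auxin libraries and 35, 62 and 59 in the Yeats2 auxin libraries. On the CPM scale this was 0.493 and 0.454 in Control, 1.15, 1.36 and 1.20 after Zzz3 auxin, and 1.35, 2.24 and 2.33 after Yeats2 auxin. Every auxin library lay above both Control libraries. After Yeats2 auxin the level was 1.98 ± 0.542 CPM (SD, n = 3) against 0.473 ± 0.0282 (n = 2), a log2 FC of 2.05 (95% interval 1.26 to 2.85, adjusted P = 0.0408). After Zzz3 auxin it was 1.24 ± 0.106 CPM (n = 3), a log2 FC of 1.38 (0.56 to 2.20) that did not pass (adjusted P = 0.0882). In bulk RNA, a few cells with much Tex101 RNA and many cells with little cannot be told apart. Over 16 alternative settings with an adjusted P, the log2 FC after Yeats2 auxin stayed between 1.89 and 2.27, while the adjusted P ran from 0.000362 to 0.472. The call was lost without either Control library (0.472 without replicate 1 and 0.174 without replicate 2), without any of the Yeats2 auxin libraries (0.0874, 0.157 and 0.182 without replicates 1, 2 and 3), without Zzz3 auxin replicate 2 (0.0515), with a replicate block (0.0821) and with limma-voom (0.0681). DESeq2 gave Tex101 no adjusted P because of its filter on low counts. In a fit without that filter, added after seeing the data, it was 0.00287, where 2.18% of all genes were called.

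**Figure D4:**
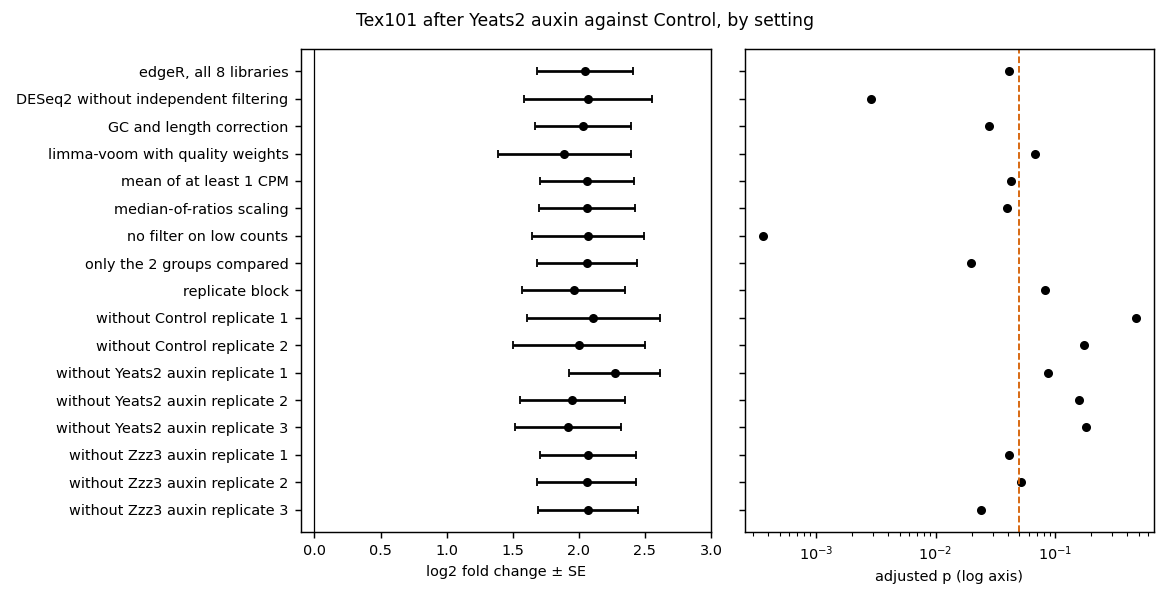
Log2 FC ± SE of Tex101 after Yeats2 auxin against Control (left) and its adjusted P on a log axis (right) in the edgeR fit of all 8 libraries and in 16 alternatives, with the threshold of 0.05 dashed. Every estimate lies between 1.89 and 2.27, and the adjusted P lies on either side of the threshold.

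Dazl (chr17:50279395-50293636), which binds and regulates germ cell mRNAs, had the most reads of the 9 genes. It was at 28.4 and 21.8 CPM in Control, 35.0, 33.1 and 31.3 CPM after Zzz3 auxin and 27.3, 26.5 and 29.5 CPM after Yeats2 auxin. All 3 Zzz3 auxin libraries lay above both Control libraries and above all 3 Yeats2 auxin libraries. The log2 FC after Zzz3 auxin was 0.40 (95% interval 0.08 to 0.72, adjusted P = 0.154), and after Yeats2 auxin it was 0.15 (-0.17 to 0.47, adjusted P = 0.680), or -0.03 without Control replicate 2. With a correction for GC content and length of the transcripts, the value after Zzz3 auxin was 0.68 and passed (adjusted P = 0.0263), while over its 17 alternatives the adjusted P ran from 0.0263 to 0.497. Dazl has a GC content of 36.96% in its transcripts. Control replicate 1 and Zzz3 auxin replicate 3 were the libraries that leaned most with GC content: the median log2 deviation of genes above 53.9% GC minus that of genes under 44.3% GC was -0.60 in the former and 0.43 in the latter. Zzz3 auxin replicate 1, the library with the highest Dazl value, was also the one with high Zscan4d. Without it the log2 FC of Dazl after Zzz3 auxin was 0.38. Across the fits that leave out 1 library the value was 0.60 without Control replicate 1, 0.23 without Control replicate 2 and between them in the others, none of them called.

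The piRNA pathway members of the set, Mael and Tdrkh, had fewer reads. Mael (chr1:166201201-166238747), a protein of the perinuclear nuage of germ cells, was at 3.45 and 3.81 CPM in Control, 4.22, 3.85 and 4.42 CPM after Zzz3 auxin and 2.98, 4.45 and 3.60 CPM after Yeats2 auxin. The Zzz3 auxin libraries lay just above Control and the Yeats2 auxin libraries on either side of it, with log2 FC of 0.19 (95% interval -0.31 to 0.69) and 0.02 (-0.48 to 0.52). The latter turned to -0.05 when Control replicate 1 was left out and to -0.14 when replicate 2 of Yeats2 auxin was. Tdrkh (chr3:94413273-94434668), a Tudor protein that helps trim piRNAs, was at 1.38 and 0.635 CPM in Control, 0.921, 1.1 and 0.468 CPM after Zzz3 auxin and 1.12, 1.34 and 1.19 CPM after Yeats2 auxin. Its Control libraries spanned nearly the whole range of the gene, and the log2 FC were -0.21 (-1.14 to 0.71) and 0.28 (-0.61 to 1.17). The former turned to 0.43 without Control replicate 1 and to 0.03 when replicate 3 of Zzz3 auxin was left out. The latter turned to -0.18 without Control replicate 2. Neither gene was called in a comparison. Tdrkh shares 2255 exon bases with Oaz3 on the opposite strand, which held 6 reads in all 8 libraries.

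Stk31, the other Tudor domain gene of the set, lies on chr6:49395604-49469501. It was at 21.8 and 16.3 CPM in Control, 22.0, 26.8 and 17.4 CPM after Zzz3 auxin and 25.5, 25.8 and 33.1 CPM after Yeats2 auxin. The Yeats2 auxin libraries lay above both Control libraries, and the Zzz3 auxin libraries overlapped with them. The log2 FC was 0.57 after Yeats2 auxin (95% interval 0.11 to 1.02, adjusted P = 0.245) and 0.22 after Zzz3 auxin (-0.23 to 0.68, adjusted P = 0.569).

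None of the 3 meiotic genes, Sycp3, Sycp1 and Hormad1, was called in a comparison. Sycp3 (chr10:88459569-88473236), which builds the axis of the synaptonemal complex, was at 13.0 and 12.3 CPM in Control, 12.6, 8.91 and 8.37 CPM after Zzz3 auxin and 6.89, 9.77 and 8.74 CPM after Yeats2 auxin. All 3 Yeats2 auxin libraries lay below both Control libraries, with a log2 FC of -0.58 (95% interval -1.05 to -0.11, adjusted P = 0.250), and after Zzz3 auxin it was -0.34 (-0.81 to 0.13), or 0.02 with the correction for GC content and length. Sycp3 shares 660 of its 1264 exon bases with Chpt1 on the opposite strand, and the strand setting of the counting is not stated. The union mode of HTSeq assigns a read that matches both genes to neither. If strand was not used, reads in the shared bases were dropped, which by itself lowers the levels of Sycp3 and Tdrkh per kb. The net direction is not known. Chpt1 had a log2 FC of -0.26 after Zzz3 auxin and -0.19 after Yeats2 auxin. Sycp1 (chr3:102818499-102936100), which spans the space between the axes, was at 1.09 and 1.04 CPM in Control, 1.84, 1.28 and 1.07 CPM after Zzz3 auxin and 1.24, 1.52 and 1.27 CPM after Yeats2 auxin. Its log2 FC were 0.42 (-0.28 to 1.12) and 0.33 (-0.36 to 1.03). Hormad1 (chr3:95559677-95587671), which marks axes that have not synapsed, was at 7.35 and 5.58 CPM in Control, 10.4, 9.53 and 6.29 CPM after Zzz3 auxin and 7.31, 8.50 and 8.98 CPM after Yeats2 auxin. Both auxin groups overlapped with Control, with log2 FC of 0.45 (-0.07 to 0.97, adjusted P = 0.299) and 0.36 (-0.17 to 0.88, adjusted P = 0.514).

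Slc25a31 (chr3:40708855-40726096), which exchanges ADP and ATP across the inner mitochondrial membrane of male germ cells, was at 1.43 and 0.590 CPM in Control, 1.27, 0.476 and 0.268 CPM after Zzz3 auxin and 0.696, 0.434 and 0.910 CPM after Yeats2 auxin. All groups overlapped. With 4 to 33 reads a library the intervals were wide, and the log2 FC were -0.51 (-1.80 to 0.79) and -0.56 (-1.84 to 0.72). Both turned without Control replicate 1, to 0.25 and 0.20.

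The second question was whether the auxin groups differed from each other. In the direct comparison 0 of 9 genes were called, where 0% of all 17532 genes were, by edgeR. DESeq2 and limma-voom also called 0 of the 9, where they called 0.0171% and 0.0057% of all genes. Tex101 had an unadjusted P under 0.05, as had 6.25% of all genes, with a log2 FC of 0.67 higher after Yeats2 auxin (95% interval 0.07 to 1.27, adjusted P = 0.779). In 2 of the 9 the libraries did not overlap, against 11.1% of all genes: Dazl was lower after Yeats2 auxin by a log2 FC of -0.26 (-0.54 to 0.03) and Tdrkh higher by 0.49 (-0.30 to 1.29). Stk31 had a log2 FC of 0.35 (-0.06 to 0.75). The median over the 9 genes was -0.08. With the correction for GC content and length, 2 of the 9 had an unadjusted P under 0.05 in edgeR, as had 1281 of the 17532 genes.

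Of the 36 pairs of the 9 genes, 29 had across the 8 libraries, in log2 CPM, a Pearson r above 0, with a median of 0.298. The highest were Sycp1 with Hormad1 (0.823) and Stk31 with Tdrkh (0.764), and the lowest was Sycp3 with Tex101 (-0.627). The 5 genes of 13910 whose pattern was most like that of Dazl were Map3k20 (r = 0.965), Greb1l (0.964), Gm8994 (0.949), Trpc6 (0.944) and Cyp2u1 (0.940). These are descriptions over 8 libraries, which share their depth and their group with every gene in them. Pairs of all tested genes were not computed, so 29 of 36 has no background beside it. The libraries also differed in their lean with GC content (-0.60 to 0.43), whose part was not tested.

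Other genes of the same programmes were described by 3 lists with 82 genes found in the files, 68 of them tested. Fkbp6, a co-chaperone that works with HSP90 in the piRNA pathway, was higher in both auxin groups than in Control. It was the one gene of the lists called after Zzz3 auxin. It was at 19.5 and 23.5 CPM in Control, 39.8, 44.9 and 37.8 CPM after Zzz3 auxin and 34.6, 44.0 and 49.2 CPM after Yeats2 auxin. Every auxin library lay above Control, with log2 FC of 0.92 (95% interval 0.55 to 1.30, adjusted P = 0.0407) and 0.98 (0.60 to 1.36, adjusted P = 0.0408). Over its 17 alternatives the adjusted P ran from 1.14e-05 to 0.497 after Zzz3 auxin and from 3.13e-06 to 0.519 after Yeats2 auxin. Both highest values came without Control replicate 1. The call after Zzz3 auxin was lost in 9 alternatives, namely when any Control or Yeats2 auxin library or Zzz3 auxin replicate 1 was left out, with only the compared groups in the fit (0.163), with limma-voom (0.0907) and with a replicate block (0.0627). That after Yeats2 auxin was lost when any Control or Yeats2 auxin library was left out and with the block (0.0688), while the log2 FC stayed between 0.79 and 1.13. Sohlh2, a transcription factor of germ cell differentiation, fell after Yeats2 auxin from 32.7 and 35.8 CPM in Control to 16.7 to 21.1 CPM, a log2 FC of -0.85 (-1.20 to -0.50, adjusted P = 0.0493). All 3 libraries lay below Control. After Zzz3 auxin it was at 27.2, 24.2 and 20.1 CPM (log2 FC -0.52, adjusted P = 0.113). Its adjusted P after Yeats2 auxin ran from 0.000553 to 0.419 over 17 alternatives, the highest again without Control replicate 1, and the call was lost without any one of the Control or Yeats2 auxin libraries or Zzz3 auxin replicate 2, with a mean of at least 1 CPM (0.0574), with median-of-ratios scaling (0.0517) and with the block (0.108).

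By list, 1 of 19 tested genes of the piRNA pathway, 0 of 30 of meiosis and 0 of 19 of germ cell regulators and testis genes were called after Zzz3 auxin, where 0.753% of all tested genes were, with median log2 FC of 0.10, 0.03 and 0.24. After Yeats2 auxin it was 1 of 19, 0 of 30 and 1 of 19, against 0.445% of all genes, with medians of 0.01, 0.14 and 0.09. At an unadjusted P under 0.05, 5 of the meiosis genes were higher and 3 lower after Zzz3 auxin, and 5 were higher and 1 lower after Yeats2 auxin, where 21.7% and 14.6% of all tested genes passed in either direction. Of the 51 genes in the 3 lists to which it gave an adjusted P, DESeq2 called 6 after Zzz3 auxin (5 higher, 1 lower) and 5 after Yeats2 auxin (3 higher, 2 lower), against 8.5% and 3.31% of all genes with one. Of the 68 genes limma-voom called 0 and 4, against 0.508% and 2.21%. In the direct comparison these 3 tools called 0 of them. The most abundant were Rnf17 at 200 to 305 CPM, Tex15 at 111 to 149 CPM, both of the piRNA pathway, the meiotic genes Trip13 (99.1 to 139 CPM), Mlh3 (84.7 to 138 CPM) and Hsf2bp (70.6 to 89.9 CPM), and Rpl10l (89.9 to 149 CPM), a ribosomal protein retrogene whose reads are uncertain because of its near-identical parent. None of these 6 was called, and Rnf17, Trip13 and Mlh3 had log2 FC of -0.35, -0.36 and -0.36 after Zzz3 auxin. Pgk2, a glycolytic gene of sperm, had 0 reads in all libraries, which allows up to 0.108 to 0.210 CPM in a library.

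Of the genes that repress the germline programme, 28 of 28 were tested. edgeR called 0 of the 28 after Zzz3 auxin, 0 after Yeats2 auxin and 0 in the direct comparison. Of all tested genes it called 0.753%, 0.445% and 0%. The median log2 FC of the 28 against Control were -0.02 and 0.00. At an unadjusted P under 0.05, 4 were higher and 3 lower after Zzz3 auxin, and 5 were higher and 3 lower after Yeats2 auxin, beside the same 21.7% and 14.6% of all genes. DESeq2 called 2 (Trim28 and Uhrf1) and 2 (Dnmt3b and Uhrf1), all higher, against 8.5% and 3.31% of all genes with an adjusted P. Without its filter on low counts it called only Uhrf1 of the 28 after Zzz3 auxin, against 5.74%. Limma-voom called 0 and 2 (Dnmt3b and Uhrf1), against 0.508% and 2.21%. Uhrf1, which brings DNA methylation to newly copied DNA, was at 434 and 532 CPM in Control, 712, 626 and 659 CPM after Zzz3 auxin and 734, 772 and 685 CPM after Yeats2 auxin. All auxin libraries lay above Control, with log2 FC of 0.46 (adjusted P = 0.0882) and 0.60 (adjusted P = 0.0738). Trim28, a corepressor for zinc finger proteins, was at 1370 and 2050 CPM in Control and at 2260 to 2820 CPM in the auxin libraries (log2 FC 0.55 and 0.48, adjusted P = 0.109 and 0.223). Mga, the E-box subunit of PRC1.6, was at 843 and 698 CPM in Control, 781, 705 and 642 CPM after Zzz3 auxin and 712, 598 and 740 CPM after Yeats2 auxin, so the groups overlapped.

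**Figure D5:**
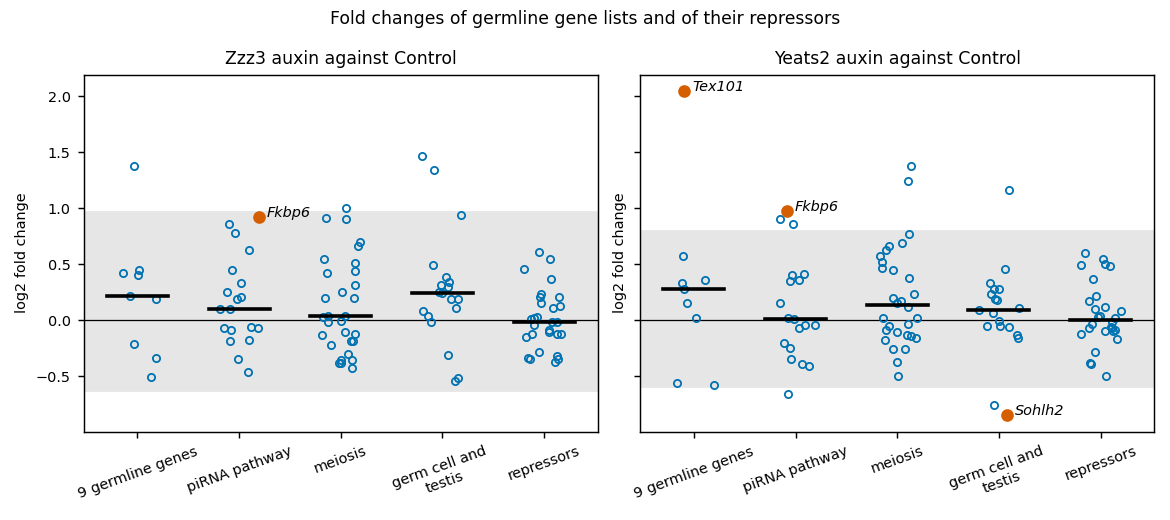
Log2 FC (vertical axis) after Zzz3 auxin (left) and Yeats2 auxin (right) of the 9 germline genes, the 3 lists of other germline genes and the repressors, with 1 circle per tested gene, black bars for list medians, grey bands from the 5th to the 95th percentile of all tested genes and filled points for called genes. Tex101, Fkbp6 and Sohlh2 are the called genes, and the list medians lie between -0.02 and 0.28.

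Cell state lists were set beside the germline genes. Of 15 naive pluripotency genes, edgeR called 0 in each comparison, with 2 higher and 0 lower after Zzz3 auxin and 1 higher and 1 lower after Yeats2 auxin at an unadjusted P under 0.05. DESeq2 called 1, Pou5f1, higher after Zzz3 auxin, and limma-voom 0. For this and the lists below, 21.7% and 14.6% of all tested genes passed at that unadjusted P after Zzz3 auxin and Yeats2 auxin. The shares called were 0.753% and 0.445% by edgeR, 8.5% and 3.31% by DESeq2 and 0.508% and 2.21% by limma-voom. Of the two-cell-like genes without the broadly expressed Eif1a, which was set aside after its values were seen, the summed level was 2.81 and 1.77 CPM in Control, 20.4, 5.68 and 5.22 CPM after Zzz3 auxin and 3.60, 4.23 and 3.32 CPM after Yeats2 auxin. In this sum all auxin libraries lay above Control. With Eif1a the sum was 584 to 639 CPM in Control. It was 446 to 525 CPM after Zzz3 auxin and 490 to 525 CPM after Yeats2 auxin, all below Control. edgeR called 0 of the 7 tested genes of the full list in each comparison. At an unadjusted P under 0.05, 6 were higher and 1 lower after Zzz3 auxin. DESeq2 called 1 of the 2 to which it gave an adjusted P after Zzz3 auxin, Zscan4d, and without its filter on low counts 4 of 7, Zscan4c, Zscan4d, Zscan4f and Usp17le, all higher, where 5.74% of all genes were called. Limma-voom called 0 of the 7. Their part in the levels of the 9 germline genes was not tested. Of the 4 fibroblast, 6 trophoblast and 5 gonadal genes that could be tested edgeR called 0 in each comparison. At an unadjusted P under 0.05 these were 0, 2 and 3 genes after Zzz3 auxin and 0, 2 and 1 after Yeats2 auxin, and DESeq2 called 1, Rhox5, in both comparisons with Control. Without its filter on low counts it also called Krt7 of the trophoblast genes, higher after Zzz3 auxin, where 5.74% of all genes were called. Rhox5, an X-linked homeobox gene of the gonad, was at 0.987 and 1.32 CPM in Control, 3.15, 3.23 and 2.14 CPM after Zzz3 auxin and 2.90, 3.04 and 3.56 CPM after Yeats2 auxin. The libraries did not overlap, and the log2 FC of 1.31 and 1.45 did not pass in edgeR (adjusted P = 0.0576 and 0.0588), while limma-voom called it after Yeats2 auxin and not after Zzz3 auxin.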

How the data were processed

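Total RNA from 8 mouse ESC libraries was measured by RNA-seq. The deposited values are raw counts of reads per gene, 1 table per library, with no normalization. The authors, per the labels and methods of the study, trimmed reads and discarded those of ribosomal RNA, then used STAR 2.5.3a for alignment to mm10 and counted unique alignments with HTSeq 0.6.1p1 in union mode on Ensembl 102. The labels name poly(A) RNA but describe ribodepletion, and whether the counting used strand is not given in the sources used here. Reads in no gene, 29.6% to 37.1% of those uniquely aligned, and 4 other tallies were left out.

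Symbols and positions came from GENCODE on GRCm38 (55141 of 55401 genes matched). The fit used edgeR 4.0.16 in R 4.3.3 with filterByExpr (17532 genes), TMM factors of 0.978 to 1.045, all 8 libraries and a robust quasi-likelihood test, adjusted over all tested genes within each of 3 comparisons. The SE is the log2 FC divided by the square root of F, as a size. DESeq2 1.42.0, the tool of the study, limma 3.58.1 and other settings served as alternatives. In data simulated for Zzz3 auxin against Control, edgeR recovered 152 to 169 of 200 changed genes among 17532, with 11 to 19 false calls. For Yeats2 auxin it recovered 152 to 163, with 9 to 19 false calls. The changes planted there were larger than the log2 FC of every one of the 9 germline genes but Tex101 after Yeats2 auxin. Recovery of genes with the read counts and log2 FC of the 9 germline genes was therefore not tested. No 2 replicates agreed within sampling noise. Promoters came from RefSeq on GRCm38.p6.

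Members and lists were chosen with earlier results of these data known. Named were all 9 genes, the other germline genes and repressors that were called, the most abundant 6 and 3 of these, the 2 most abundant of each other list, the 5 genes most like Dazl and the targeted genes. Genes outside this rule were named after their values were seen. Depth limits precision for genes with few reads, and the limit stated for 0 reads, 3 counts, covers counting error only.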

Additional observations from a re-analysis of the deposited data

How the results depend on the processing

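Counts of called genes depended on the setting far more than fold changes did. After Zzz3 auxin 132 of all tested genes were called in the edgeR fit, 1114 with DESeq2, 1006 with DESeq2 without independent filtering (an alternative chosen after seeing the data), 1542 with no filter on low counts, 0 with only the 2 groups compared, 42 with a replicate block, and 0 to 841 when 1 library was left out. A fit without 1 Control library assumes that the lone Control varies like the other groups. After Yeats2 auxin the counts were 78, 434, 383, 553, 501, 32 and 0 to 217, with 132 under the GC and length correction and 388 with limma-voom. In the direct comparison they were 0, 3, 3 and 117, with 1 with limma-voom and 0 to 1 when 1 library was left out. After Zzz3 auxin with the GC and length correction, 2907 of the 17532 tested genes had an unadjusted P under 0.05 in edgeR. The fit with no filter on low counts tested more genes. No share of all genes called is given for either of these fits. Of the 9 germline genes, Dazl was called after Zzz3 auxin with the GC and length correction and Tex101 with no filter on low counts. After Yeats2 auxin 0 were called with DESeq2 (5 of the 9 had an adjusted P), limma-voom and the replicate block, and 0 to 1 when 1 library was left out. Same-numbered replicates did not deviate together in all pairs (r from -0.336 to 0.305). The deviations of the 2 Control libraries from their mean mirror each other, so these values cannot decide whether the numbers are a pairing. The block took the adjusted P of Tex101 after Yeats2 auxin to 0.0821.

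Of 448 fold changes of the 9 genes under alternatives, 431 kept their direction. The reversals were all in uncalled values. Mael after Yeats2 auxin was at -0.10 with limma-voom and 0.00 with the replicate block, Sycp3 after Zzz3 auxin was at 0.02 with the GC and length correction, and Slc25a31 in the direct comparison was at 0.22 with limma-voom and 0.04 with the replicate block. Fkbp6 in the direct comparison was at -0.01 with limma-voom. When 1 library was left out, the log2 FC ran from -0.03 to 0.35 for Dazl, -0.14 to 0.15 for Mael, -1.07 to 0.20 for Slc25a31 and -0.18 to 0.93 for Tdrkh after Yeats2 auxin, from -1.32 to 0.25 for Slc25a31 and -0.67 to 0.43 for Tdrkh after Zzz3 auxin, and from -0.21 to 0.17 for Sycp1, -0.36 to 0.77 for Slc25a31, -0.27 to 0.05 for Hormad1 and -0.06 to 0.19 for Fkbp6 in the direct comparison. With detection at 4 reads or 0.1 CPM, 9 genes in place of 7 were detected in every library. The cause of these shifts was not tested.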
